A study of Mus musculus with 4 samples.

Results

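Described here are 9 genes of glutamine and sulfur amino acid metabolism, Glul, Slc1a5, Slc38a2, Asns, Cbs, Cth, Mat2a, Cdo1 and Slc7a11, in the left lung lobe of newborn mice. They were found by their gene symbols among the 48709 genes of the deposited table, and all 9 were among the 18436 genes whose normalized read counts averaged at least 10 over the 4 libraries, the minimum for the test. RNA came from untreated C57BL/6 mice at postnatal day 1, from 2 RykSL/SL mice, homozygous for the SL allele of the WNT receptor gene Ryk (called mutant), and from 2 wild-type mice, 1 lung and 1 library per mouse. The labels give no other allele or agent, do not say what the SL allele changes, and name neither sex nor litter. Glul and Cbs were chosen by their normalized counts, which are higher in the mutant lungs than in the wild type, so their differences are given as a description with no test. The other 7 were chosen for their function, with earlier results of these data known, and were tested.

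Glutamine is the main carrier of nitrogen between cells and a substrate for nucleotide, asparagine and glutathione synthesis. Glutamine synthetase (Glul) makes it from glutamate and ammonia, and lung is among the tissues known to release it. The sulfur amino acids are linked by a cycle and a branch. Methionine is activated to S-adenosylmethionine, the general methyl donor, which becomes S-adenosylhomocysteine after giving up its methyl group and then homocysteine. Homocysteine is either methylated back to methionine or passed by cystathionine beta-synthase (Cbs) and cystathionine gamma-lyase (Cth) to cysteine. Cysteine goes into protein and glutathione, or is oxidised by cysteine dioxygenase (Cdo1) towards taurine and sulfate. Cells short of amino acids are known to turn on genes of uptake and synthesis through the transcription factor ATF4, and oxidative stress acts on cystine uptake through NRF2.

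The sequence upstream of 4 of these genes is shown because 2 of them, Glul and Cbs, were the members with the largest differences, and the other two, Slc7a11 and Asns, are textbook targets of ATF4. RefSeq promoter windows (GRCm38.p6, 250 bases before to 50 after the start) were found for 6 of the 9 members: Glul, Cbs, Slc7a11, Asns, Mat2a and Slc38a2. Capitals mark matches to TGATGNAA on either strand, the core of the C/EBP-ATF element that ATF4 is known to bind. Each sequence runs 5′ to 3′ on the strand of its gene and stops before the annotated transcripts, except that of Asns, which shows only the 30 bases around its match. The Asns stretch lies before the RefSeq start but inside the annotated gene.

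Glul: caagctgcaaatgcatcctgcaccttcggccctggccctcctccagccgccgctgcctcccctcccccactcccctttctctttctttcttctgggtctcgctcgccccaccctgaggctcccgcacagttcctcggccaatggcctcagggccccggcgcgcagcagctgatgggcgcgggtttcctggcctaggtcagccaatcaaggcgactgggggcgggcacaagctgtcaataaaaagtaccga
Cbs: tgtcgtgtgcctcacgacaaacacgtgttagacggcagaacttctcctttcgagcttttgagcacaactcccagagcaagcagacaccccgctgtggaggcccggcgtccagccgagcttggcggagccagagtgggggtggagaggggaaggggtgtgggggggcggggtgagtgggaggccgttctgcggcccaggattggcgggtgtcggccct
Slc7a11: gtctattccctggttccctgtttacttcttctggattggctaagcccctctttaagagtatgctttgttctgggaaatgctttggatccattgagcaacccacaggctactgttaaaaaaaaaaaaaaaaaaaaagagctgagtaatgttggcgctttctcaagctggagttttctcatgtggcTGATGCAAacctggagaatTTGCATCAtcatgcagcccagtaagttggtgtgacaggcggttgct
Asns: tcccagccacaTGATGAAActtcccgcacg

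The Glul sequence is chr1:153899679-153899928 on the plus strand. The other three lie on the minus strand, Cbs at chr17:31637239-31637455, Slc7a11 at chr3:50443615-50443863 and Asns at chr6:7693214-7693243, all in GRCm38. The Slc7a11 window held 2 matches, 1 on each strand, with first bases at -66 and -47 from the RefSeq start, and the Asns window held 1 at -23. The windows of Glul, Cbs, Mat2a and Slc38a2 held none. Of all 32851 RefSeq promoter windows of this length, 3.97% held the motif at least once and 0.07% at least 2 times. The core of the antioxidant response element known to be bound by NRF2, TGACNNNGC on either strand, was found in 12.4% of all windows and, among the members, once in Asns (-172) and once in Slc38a2 (-27). None of these matches overlapped another. The matches are letters in a window, and binding was not measured.

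Library totals of the normalized values lay between 18658239 and 19987634. Ryk itself had values of 2757 and 2203 against 2528 and 2525. Here and throughout, mutant lungs 1 and 2 come first, followed by wild-type lungs 1 and 2 unless a change from wild type to mutant is described. Over the tested genes the SD of the log2 difference was 0.31 between the wild-type lungs and 0.60 between the mutant lungs, and it was highest between mutant lung 2 and the wild type (0.76 and 0.74). Mutant lung 1 had 24836 normalized counts of Xist, the RNA of the inactive X chromosome, against 7 to 23 in the other three. The Y-linked gene Ddx3y was at 56 in mutant lung 1 against 3769 in mutant lung 2 and 2328 and 2197 in the wild type. Both genes set mutant lung 1 apart from the other three as a lung of the other sex would be, so results are given for each mutant lung, and the part of sex in them was not tested. All 7 lung markers were present in every library. Of them 5 were lower in both mutant lungs, among them the surfactant gene Sftpc (179120 and 135559 against 220945 and 200581) and the alveolar type 1 gene Ager (15977 and 18969 against 26920 and 27795), 1 was higher in both, the epithelial factor gene Nkx2-1 (4853 and 4919 against 4234 and 4126), and none passed the test. Summed markers of 4 cell types were lower in both mutant lungs. The 8 markers of alveolar type 2 cells came to 287742 and 252692 against 342661 and 312629, and the 8 of alveolar type 1 cells to 87404 and 76176 against 93644 and 94460. Sftpc made up most of the alveolar type 2 sum. In each of these alveolar lists 4 of the 8 markers were lower in both mutant lungs and 1 was higher in both. The 8 myeloid markers came to 22926 and 25921 against 40654 and 31088, and the 6 cardiac muscle markers to 3645 and 2946 against 5707 and 5934. Of these 4 lists 1 gene passed, the cardiac Myl7, which fell. Of the 8 fibroblast markers Inmt and Pdgfra rose and Lum fell, while their sum was 69698 and 48167 against 51534 and 51866. The 6 smooth muscle markers came to 10550 in mutant lung 1 and 3953 in mutant lung 2, around 8450 and 7218 in the wild type. The 8 endothelial markers came to 38667 and 24994 against 31741 and 34150, and the 6 erythroid markers to 310653 and 368995 against 336422 and 393493. In RNA of a whole lobe, fewer cells of a type and less RNA per cell cannot be told apart, and the part of these cell types in the results below was not tested.

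**Figure D1:**
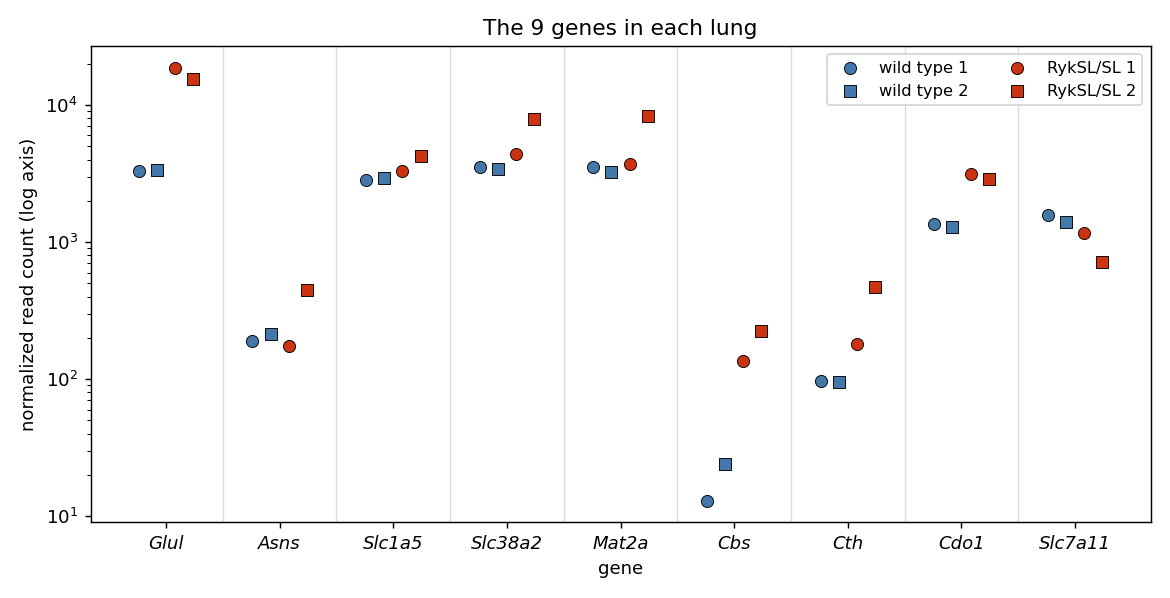
Normalized read counts (log axis) of the 9 genes in each of the 4 lungs, circles for replicate 1 and squares for replicate 2, blue for wild type and red for RykSL/SL. Glul, Cbs and Cdo1 are higher in both mutant lungs by a wide margin, while Cth, Mat2a, Slc38a2 and Asns stand out mainly in mutant lung 2.

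Of the 7 members not chosen for their values, only Cdo1 passed the test (limma on log2(value + 1), Benjamini-Hochberg adjusted p under 0.05 over all tested genes), and it was higher in the mutant. Among all tested genes 2.39% passed, 1.47% in that direction and 0.917% in the other. Both mutant lungs lay above both wild-type lungs in 5 of the 7 genes and below them in 1, where 25.7% and 26.9% of all tested genes did so. No gene of the table passed without mutant lung 2 (5274 had an unadjusted p under 0.05 in limma), without wild-type lung 1 (922) or without wild-type lung 2 (1139), so every call below rests on each of these lungs. No gene passed without the filter on low values either, and without the mean-variance trend only Slc1a2 and Ddit4 did among the pathway genes called below. The median log2 difference of the 7 genes was 0.72, against -0.02 over all tested genes. It was 0.20 in mutant lung 1 and 1.15 in mutant lung 2, each against the wild-type mean.

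Glul (ENSMUSG00000026473, chromosome 1, positions 153899944 to 153909723), the only enzyme that makes glutamine, was the most abundant member. Its normalized counts were 18764 and 15398 in mutant tissue, compared with 3315 and 3351 in wild-type tissue. The groups did not overlap, and the difference was seen in full in both mutant lungs, larger in mutant lung 1. On the log2(value + 1) scale it was 2.35 with a standard error of 0.17, a 5.10-fold higher level, and 2.49 and 2.21 in mutant lungs 1 and 2 taken alone. Of the tested genes, 0.461% had a larger increase, a description only, since Glul was chosen for its rise. Other annotated genes, those that overlap it included, share 12.6% of the 50-base sequences of Glul on either strand. Of its exons, 93 bases overlap Mir8114 on the same strand, where strand cannot separate the reads. Another 116 bases overlap Teddm2 on the opposite strand, where reads cannot be assigned with the strand setting unknown.

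Asns (ENSMUSG00000029752, chromosome 6, positions 7675169 to 7693254), which uses glutamine to make asparagine, had 176 and 449 against 190 and 213. Mutant lung 1 was below both wild-type lungs and mutant lung 2 above both, so no difference between the genotypes was shown (0.48, standard error 0.42, adjusted p = 0.568). The 95% interval of the log2 difference ran from -0.55 to 1.51. Of 28 tested enzymes that make or use glutamine, glutamate, asparagine, proline and serine, 1 rose and 1 fell, where 1.47% of all tested genes rose and 0.917% fell, with a list median of -0.05. Aspg, an asparaginase, which breaks asparagine down, rose from 104 and 133 to 610 and 1347 (2.94, standard error 0.37, adjusted p = 0.0249). Psat1, an enzyme of serine synthesis, fell from 1709 and 1676 to 966 and 808 (-0.94, adjusted p = 0.0392). Phgdh, the first enzyme of that route, did not pass, with 117 and 113 against 201 and 184 (adjusted p = 0.111), and 47.8% of its 50-base sequences are shared with other genes. Glutamate dehydrogenase, Glud1, did not pass, with 5127 and 4325 against 2969 and 2908 (0.68, adjusted p = 0.0865).

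The 2 members that carry glutamine, Slc1a5 and Slc38a2, were higher in both mutant lungs without passing the test. Slc1a5 (ENSMUSG00000001918, chromosome 7, positions 16781340 to 16798274), an exchanger that brings glutamine into cells, had 3323 and 4269 against 2858 and 2941. The difference was 0.38 (standard error 0.17, adjusted p = 0.279), and mutant lung 2 gave most of it (0.56 against 0.20 in mutant lung 1). Slc38a2 (ENSMUSG00000022462, chromosome 15, positions 96687394 to 96699698), a sodium-coupled carrier known to be induced when amino acids are short, had 4428 and 7879 against 3537 and 3433. Its difference was 0.76 (standard error 0.27, adjusted p = 0.208), with 0.35 in mutant lung 1 and 1.18 in mutant lung 2.

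Slc7a11 (ENSMUSG00000027737, chromosome 3, positions 49892526 to 50443614), which imports cystine in exchange for glutamate, was the only member lower in both mutant lungs. It had 1156 and 712 normalized counts against 1573 and 1398, a difference of -0.71 with a standard error of 0.24 that did not pass (adjusted p = 0.194). Its partner chain Slc3a2, needed to bring the carrier to the cell surface, was higher instead, at 1729 and 4476 against 1216 and 1268 (1.16, standard error 0.41, adjusted p = 0.205). Slc7a5, a carrier of large neutral amino acids that pairs with the same chain, lay just outside the threshold with 949 and 625 against 261 and 342 (1.36, adjusted p = 0.0562). Of 29 tested amino acid transporters outside the 9 genes, 2 rose and 1 fell, beside 1.47% and 0.917% of all tested genes, with a median of 0.25. Both mutant lungs lay above both wild-type lungs in 15 of the 29 and below them in 9, where 25.7% and 26.9% of all tested genes did so. The sodium-coupled carrier gene Slc38a4 rose from 743 and 634 to 1402 and 2168 (1.34, adjusted p = 0.0480), and the neutral amino acid transporter gene Slc43a2 rose from 911 and 887 to 1752 and 2338 (1.17, adjusted p = 0.0347). Slc38a4 did not pass after quantile normalization or after scaling to library totals. The glutamate transporter gene Slc1a2 fell from 135 and 112 to 27 and 28 (-2.12, adjusted p = 0.0193).

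**Figure D2:**
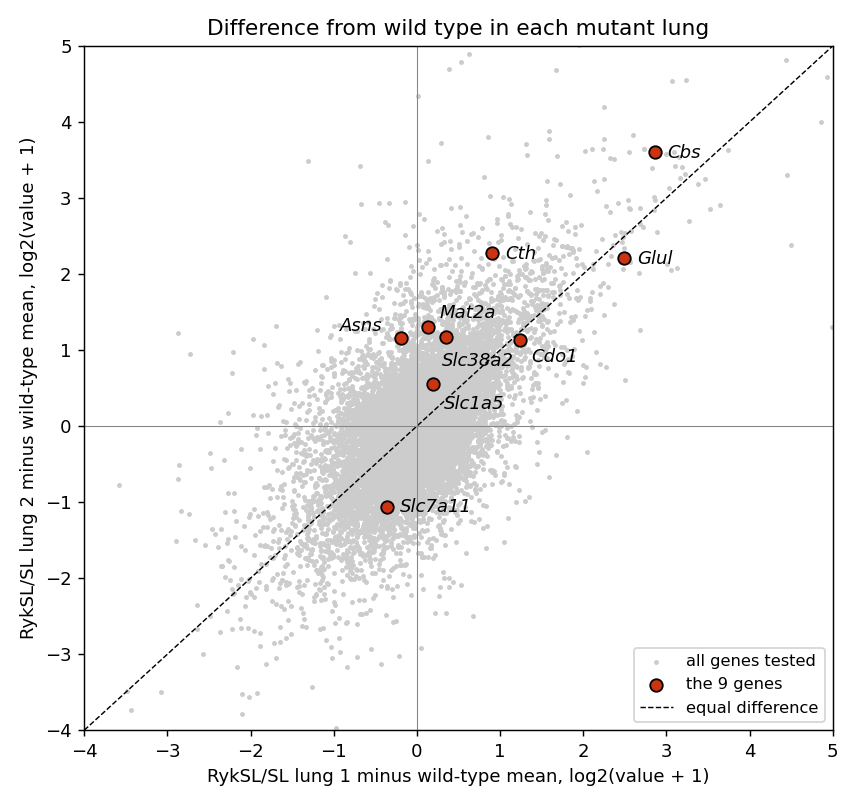
Log2(value + 1) of each mutant lung minus the wild-type mean, with mutant lung 1 on the horizontal and mutant lung 2 on the vertical axis, for all tested genes (grey; 26 lie outside the axes) and the 9 members (red). Glul and Cdo1 lie near the dashed line of equal difference, while Asns, Mat2a, Slc38a2 and Cth lie well above it.

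In the methionine cycle, the gene that makes S-adenosylmethionine outside the liver was high in 1 mutant lung and did not pass the test. Mat2a (ENSMUSG00000053907, chromosome 6, positions 72432799 to 72439558), the catalytic subunit of methionine adenosyltransferase in most tissues, had 3706 and 8322 normalized counts against 3515 and 3221. Mutant lung 1 was close to the wild type (0.14) and mutant lung 2 stood apart (1.31), and the difference of 0.72 did not pass (standard error 0.36, adjusted p = 0.328). Part of its sequence, 14.2% of the 50-base sequences on either strand, also occurs in other genes, those that overlap it included. Of its exons, 508 bases overlap Particl on the opposite strand. The regulatory subunit Mat2b was at 1765 and 1738 against 1766 and 1595 (0.06, adjusted p = 0.838). Mat1a, the liver form, was low, at 122 and 141 against 83 and 99 (0.53, adjusted p = 0.250).

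Of 28 tested genes of the methionine and folate cycles, methionine salvage and polyamine synthesis, 2 rose and none fell, with a median of -0.05. Among all tested genes 1.47% rose and 0.917% fell. Ahcy, which splits S-adenosylhomocysteine to homocysteine and adenosine, rose from 575 and 615 to 1852 and 2198 (1.76, standard error 0.15, adjusted p = 0.0107). Its reads are uncertain, since 68.7% of its 50-base sequences are shared with other genes. Gnmt, a glycine methyltransferase that uses up S-adenosylmethionine, rose from 71 and 84 to 243 and 406 (2.01, standard error 0.29, adjusted p = 0.0312). The methyltransferase gene Nnmt (1.46, adjusted p = 0.0934) and the spermidine synthase gene Srm (-0.99, adjusted p = 0.139) did not pass.

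Both enzymes of the route from homocysteine to cysteine were higher in both mutant lungs, Cbs by far more. Cbs (ENSMUSG00000024039, chromosome 17, positions 31612623 to 31637199) was at 135 and 226 normalized counts in mutant tissue against 13 and 24 in wild-type tissue. It was the member with the lowest values, and the groups stood well apart. The difference was 3.23 with a standard error of 0.40, 2.86 in mutant lung 1 and 3.60 in mutant lung 2. Cbs was chosen for its rise, and as a description only, 0.141% of the tested genes had a larger increase. Cth (ENSMUSG00000028179, chromosome 3, positions 157894248 to 157925077), which releases cysteine from cystathionine, had 182 and 470 against 97 and 96. Both mutant lungs were above the wild type, but they were so unlike each other (0.91 and 2.27) that the difference of 1.59 had a standard error of 0.43 and did not pass (adjusted p = 0.129). Since liver is rich in these enzymes, markers of hepatocytes were summed. The 10 markers together came to 235 and 140 against 78 and 87, 3 of the 10 reached the minimum mean and none passed the test. The median log2 difference of these 3 was 1.39, and 2 of them were higher in both mutant lungs than in both wild-type lungs. Albumin, Alb, was at 51 and 26 against 16 and 11, and the hepatic fibrinogen gene Fgb at 1, 0, 0 and 0. Also below the minimum mean, Ahsg was at 15 and 12 against 4 and 2, and Afp at 9 and 23 against 5 and 2. Apoa2 was lower, at 3 and 4 against 10 and 5. The part of liver RNA in these differences was not tested.

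Cdo1 (ENSMUSG00000033022), which commits cysteine to taurine and sulfate, had 3123 and 2883 normalized counts against 1344 and 1297. The groups did not overlap, and both mutant lungs were alike (1.24 and 1.13). The increase was 1.18 (standard error 0.13, limma, adjusted p = 0.0185). It did not pass without mutant lung 2 (adjusted p = 0.0879), without wild-type lung 1 (0.862), without wild-type lung 2 (0.728), without the filter (0.222) or without the trend (0.0651). The log2 difference lay between 1.07 and 1.24 in all 12 alternatives. The enzyme that follows Cdo1 on the way to taurine, Csad, did not pass, with 863 and 859 against 981 and 1009 (-0.21, adjusted p = 0.428).

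Of 29 tested genes for the other fates of cysteine, glutathione, sulfide and sulfate included, 3 rose and none fell, with a median of -0.06. The shares over all tested genes were 1.47% and 0.917%. Gpx3, the secreted glutathione peroxidase, rose from 2692 and 3086 to 13652 and 10626 (2.06, standard error 0.18, adjusted p = 0.0109). The transaminase genes Kyat1 and Kyat3, whose products can act on cysteine conjugates and on glutamine, rose by 1.26 and 1.55 (adjusted p = 0.0360 and 0.0329). Kyat1 was at 611 and 769 against 258 and 318, and Kyat3 at 170 and 224 against 69 and 63. The rate-limiting enzyme of glutathione synthesis, Gclc, had 1647 and 10212 against 1778 and 1350. Mutant lung 1 was at the wild-type level and mutant lung 2 far above it, and the difference of 1.40 did not pass (standard error 0.78, adjusted p = 0.367).

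**Figure D3:**
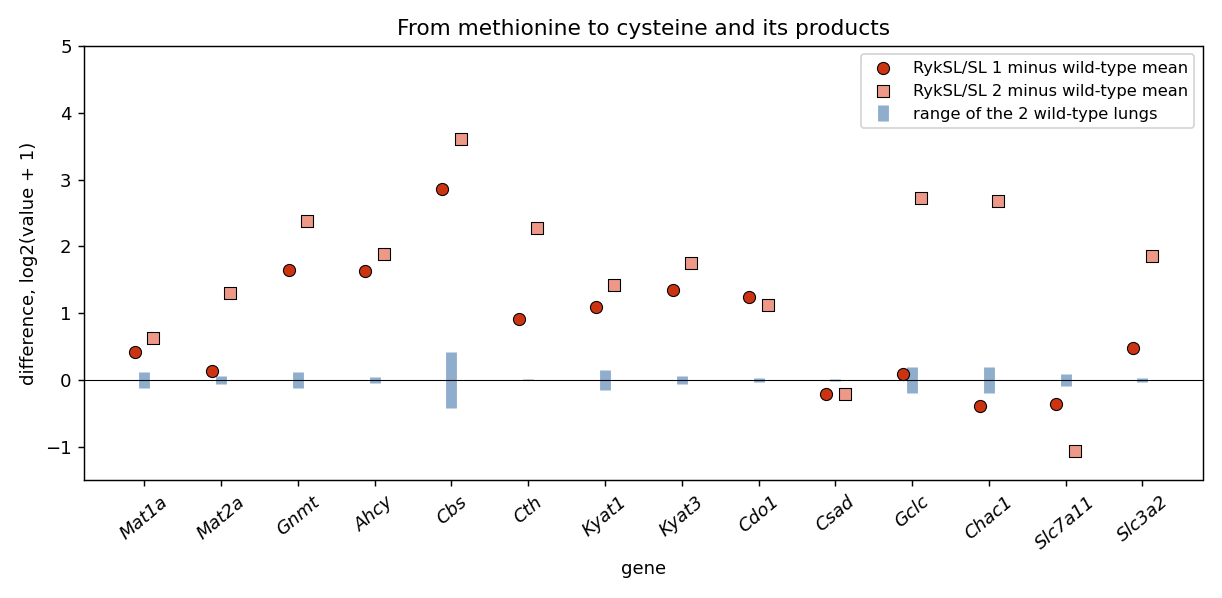
Log2(value + 1) of mutant lung 1 (circles) and mutant lung 2 (squares) minus the wild-type mean for genes from methionine activation to cysteine and its products, with the range of the 2 wild-type lungs as bars around 0. Gnmt, Ahcy, Cbs, Kyat1, Kyat3 and Cdo1 are raised in both mutant lungs, while Mat2a, Gclc and Chac1 stand out in mutant lung 2 (1.31, 2.72 and 2.68). Cth, Slc3a2 and Mat1a are also higher in both mutant lungs, and Csad and Slc7a11 are lower in both.

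Because Asns, Slc38a2, Slc7a11 and Cth are known to respond to ATF4, the other genes of that response were read beside them. Of 33 tested genes, 3 rose and 1 fell, beside 1.47% and 0.917% of all tested genes, with a median of 0.20. The rising genes were Ddit4, an inhibitor of the growth kinase complex mTORC1, from 320 and 399 to 2296 and 2255 (2.67, adjusted p = 0.00439), the secreted glycoprotein gene Stc2 from 18 and 27 to 83 and 116 (2.10, adjusted p = 0.0367) and Sesn2, a sensor in the same kinase pathway, from 195 and 250 to 457 and 576 (1.21, adjusted p = 0.0455). The falling gene was Psat1. Without mutant lung 1, Stc2 and Sesn2 did not pass, and Sesn2 did not pass after scaling to library totals. Atf4 itself was at 2724 and 4485 against 2730 and 2667 (0.37, adjusted p = 0.443). Trib3, a pseudokinase induced by ATF4, had 128 and 635 against 86 and 124 (1.46, adjusted p = 0.308), and Chac1, which degrades glutathione, had 21 and 183 against 24 and 32 (1.15, adjusted p = 0.535). In Atf4, Trib3 and Chac1, as in Asns, mutant lung 2 was far above the other three lungs. Of 20 tested NRF2 genes none passed in limma, where 2.39% of all tested genes did. An unadjusted limma p under 0.05 was seen in 1, Osgin1, at 162 and 254 against 95 and 141. The list median was 0.02.

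**Figure D4:**
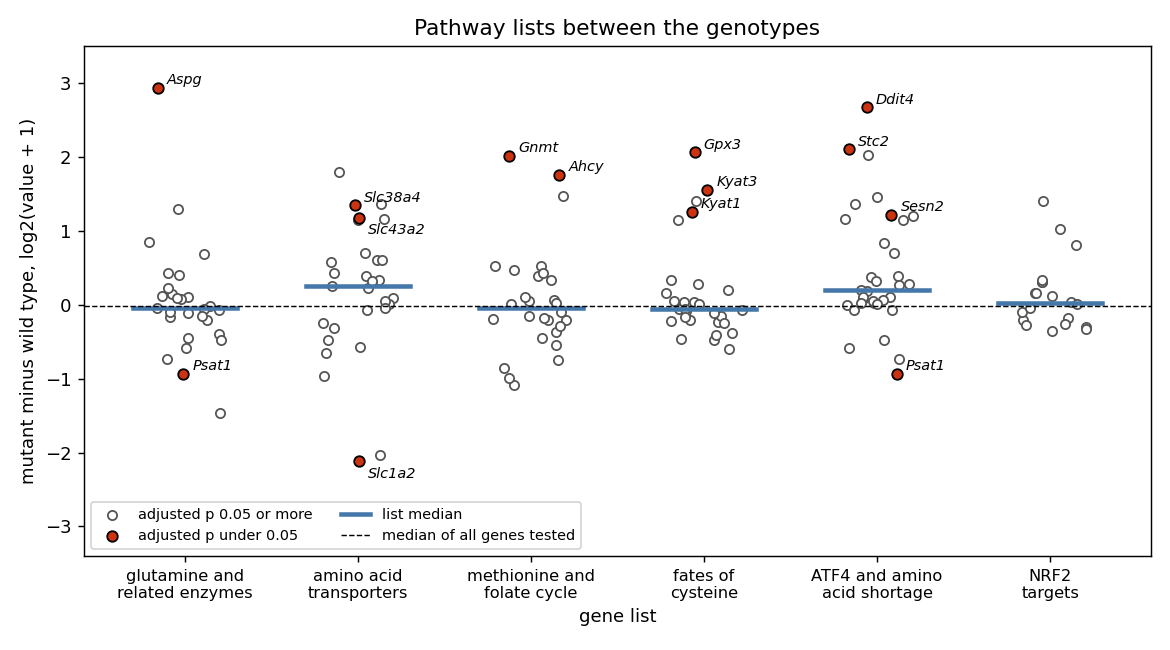
Difference between mutant and wild type on the log2(value + 1) scale for each tested gene of 6 pathway lists, without the 9 members. Red points passed the test (adjusted p under 0.05) and are named, blue lines mark list medians, which lie between -0.06 and 0.25, and the dashed line marks the median of all tested genes, -0.02.

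Over the 6 lists together, which hold 158 genes besides the 9 members, 153 were tested, 11 rose and 2 fell, beside 1.47% and 0.917% of all tested genes. Their median log2 difference was 0.04, against -0.02 over all tested genes. All 13 genes that passed are named above. Both mutant lungs lay above both wild-type lungs in 49 of the 153 and below them in 39, where 25.7% and 26.9% of all tested genes did so. Besides the transporters, the counts above and below were 13 and 4 in the ATF4 list and 6 and 7 in glutamine enzymes. They were 8 and 11 in methionine and folate genes, 5 and 7 in genes of cysteine's fates, and 6 and 5 in NRF2 genes.

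The 2 mutant lungs differed from each other by more than the 2 wild-type lungs did in 8 of the 9 members, as in 74.4% of all tested genes. Cbs was the exception, with 0.74 between the mutant and 0.84 between the wild-type lungs. Mutant lung 2 exceeded mutant lung 1 by at least 1 on the log2 scale in 3 members, Cth (1.36), Asns (1.35) and Mat2a (1.17), and in 4.51% of all tested genes. It did so in 8 of the 33 genes of the ATF4 list, 3 of the 20 NRF2 genes, 2 of the 28 glutamine enzymes, 2 of the 29 genes of cysteine's fates, 1 of the 29 transporters and 1 of the 28 methionine and folate genes. Mutant lung 1 exceeded mutant lung 2 by at least 1 in 3.64% of all tested genes. That was seen in 2 transporters, 1 methionine and folate gene, 1 gene of cysteine's fates, and 0 of the members and of the other lists. Mutant lung 1 was the higher of the mutant pair in Glul and Cdo1 (by 0.29 and 0.12) and in Slc7a11 (by 0.70). When mutant lung 2 alone was set against the wild type, all 7 tested members passed, with adjusted p between 0.0406 and 0.0439, as did 13.2% of all tested genes. That fit takes the spread of a lone mutant lung to be that of the wild-type pair. Mutant lung 1 alone against the wild type was the fit without mutant lung 2 described above. In it Glul stood at 2.49, Cbs at 2.86, Cdo1 at 1.24, and Asns at -0.19.

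Divided by the length of their annotated exons, the members covered a wide range of levels. In normalized counts per kilobase of exon, the wild-type lungs had 998 and 1008 for Glul, 818 and 789 for Cdo1, 784 and 718 for Mat2a, 685 and 705 for Slc1a5, and 400.2 and 388 for Slc38a2. Far below came Slc7a11 with 113 and 100.4, Asns with 69.5 and 77.9, Cth with 34.8 and 34.4, and Cbs with 1.74 and 3.21. No neighbours in that order overlapped. In mutant lung 1 Glul reached 5647 and Cdo1 1899.6, with Mat2a at 826 and Slc1a5 at 796. In mutant lung 2 Mat2a (1855) stood between Glul (4634) and Cdo1 (1754). Asns and Cth were at nearly equal levels in both mutant lungs (64.4 and 65.2, then 164 and 168), above Slc7a11 in mutant lung 2 (51.1), and Cbs stayed the lowest member at 18.0 and 30.2. Exons of all annotated isoforms were counted, so levels of genes with long rare isoforms are understated.

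By the root mean square difference of log2(value + 1) over the 4 libraries, each gene centred on its own mean, the genes most like Glul among 12378 compared were Pdk4 (0.12), which inhibits pyruvate dehydrogenase, Ass1 (0.15), which makes argininosuccinate, and Tsc22d3 (0.15), the glucocorticoid-induced leucine zipper gene. Pdk4 was at 1578 and 1423 against 309 and 252, Ass1 at 1114 and 1121 against 183 and 215, and Tsc22d3 at 10331 and 9994 against 2369 and 2394. Of the 50-base sequences of Ass1, 38.6% are shared with other genes. The genes most like Cbs were the kinase gene Map3k6 (0.14), Klhl29 (0.15) and the phosphatidate phosphatase gene Lpin1 (0.18). Map3k6 was at 1593 and 2994 against 202 and 284, Klhl29 at 311 and 462 against 36 and 51, and Lpin1 at 1469 and 3058 against 211 and 297. The likeness is a description over 4 libraries, which share 2 genotypes and 1 scaling.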

How the data were processed

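Poly(A) RNA libraries (TruSeq Stranded mRNA) were made from 3 micrograms of total RNA per left lung lobe, per the labels' protocols. The submitters' processing notes name FastQC, STAR 2.4.0a, featureCounts 1.5.1, Subread and DESeq2 1.14.1 with builds mm10 and GRCm38. Not given in the sources used here are the strand setting, the scaling and how reads aligning to several places were handled. The authors deposited whole-number values named as normalized counts, treated here as a score and not as raw counts, so no count model was run. Totals of these values were 18658239 to 19987634, which are not read totals, so the depth in reads is unknown here.

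Log2(value + 1) was tested with limma 3.58.1 (R 4.3.3; mean-variance trend, two-sided, Benjamini-Hochberg) over the 18436 genes that averaged at least 10. P-values rest on the spread between 2 lungs per genotype, taken as equal in both genotypes. For each gene this spread was moved towards that of genes of similar level. Other steps used Python 3.11.15 with matplotlib 3.10.9, scipy 1.17.1, numpy 2.4.6 and pandas 2.3.3. The fit was tested on simulated data with the same spread in both genotypes, which does not cover the wider spread of the mutant pair here. Members and lists were chosen with earlier results of these data known. Named genes were the members, the 4 other genes with the smallest p of each of 6 lists, 10 fixed genes (1 more is not reported here), and 3 genes most like Glul and Cbs each (mean of at least 50). Other genes named are cell type markers, Ryk, Xist and Ddx3y. Exon lengths, overlaps and shared 50-base sequences came from GENCODE M21 (GRCm38), promoters from RefSeq (GRCm38.p6). The 12 alternatives varied pseudocount, filter, trend, scaling, libraries and replicate block.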

Additional observations from a re-analysis of the deposited data

How the results depend on the processing

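Of the 108 values of the 9 members under the 12 alternatives, 1 changed sign: with each lung left out in turn Asns ranged from -0.19 (without mutant replicate 2) to 1.15. Glul and Cbs stayed within 2.21 to 2.49 and 2.81 to 3.65. Among the other named genes, Mat2b was -0.045 after quantile normalization and -0.017 after scaling to library totals. With a lung left out Mat2b ranged from -0.012 (without wild-type replicate 2) to 0.13 and Chac1 from -0.38 (without mutant replicate 2) to 2.68. Genes called numbered 440; without a filter on low values the count was 0 (4876 at an unadjusted p under 0.05), without the trend 72, and with each lung left out in turn 0 to 2442. The tested members called numbered 1 of 7, and 0 without the filter, 0 without the trend and 0 to 7 with a lung left out. Without the filter the counts in the lists of glutamine enzymes, transporters, methionine and folate, cysteine fates and ATF4 were 0, 0, 0, 0 and 0, and without the trend 0, 1, 0, 0 and 1. With a lung left out these ranged from 0 to 4, 0 to 8, 0 to 8, 0 to 6 and 0 to 11, and NRF2 genes from 0 to 5. The counts of 0 came without mutant replicate 2 or either wild-type replicate, and the higher ones without mutant replicate 1. The cause was not tested.

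Same-numbered mutant and wild-type lungs did not deviate together (r = -0.06 over 18436 genes). Only the difference within each genotype was compared, which cannot show whether same-numbered mice shared a litter, and the labels name none. With the replicate number as a block, 766 genes and 2 of the 7 tested members, Cdo1 and Cth, passed, as did 7 transporter genes. Scaling to library totals moved the median of all genes from -0.02 to -0.09 and the calls to 221 higher and 187 lower, from 271 and 169.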
